A study of Solanum pimpinellifolium with 72 samples.

Results

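HC2 is a complemented tomato: a plant of the fas near-isogenic line (NIL) that also carries the transgene pHC2, a genomic copy of SlCLV3 with wild type promoter and the whole coding region. The 12 HC2 libraries were set against the 12 WT libraries of the same stages, 24 of the 72 libraries in the series, stage by stage and as the mean over the 3 stages. All plants were Solanum pimpinellifolium LA1589, the wild relative of tomato, grown in a greenhouse. HC2 differs from WT by the transgene and also by the fas segment, a stretch of chromosome 11 brought in from cultivated tomato that holds a large inversion with one breakpoint in the promoter of SlCLV3 and the other in the first intron of SlYABBY2b. Libraries of RNAi-SlCLV3, plants that carry a hairpin transgene against SlCLV3, and of fas itself, which has the segment and no transgene, are used here to place the HC2 values. The lc, fas and lc/fas libraries, NILs with either locus or both, also served to find genes that change during bud development. The 3 stages were early tissue (floral and inflorescence meristems pooled with buds 2 days post floral initiation, dpi), buds of 4 dpi and buds of 6 dpi, each with 4 replicates. The labels speak of complementation lines in the plural, and which independent line was sequenced is not given in the sources used here. The methods describe young inflorescences collected weekly from 6 plants of a genotype for WT and the RNAi lines, and the plants behind the HC2 replicates are not given in the sources used here, so replicates may share plants. No line transformed without the construct was analysed here, and the parts of the transgene, its insertion sites, transformation and the fas segment in a difference between HC2 and WT cannot be told apart, apart from what the fas values show of the segment.

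CLAVATA3 is a small peptide secreted by the stem cells at the tip of a plant meristem. Receptor kinases such as CLAVATA1 perceive it and keep down WUSCHEL, a homeodomain transcription factor made in the cells below, which in turn sustains the stem cells and the expression of CLAVATA3. A weaker CLAVATA3 signal gives larger meristems, and in tomato flowers more locules in the fruit.

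The values are RPKM, reads scaled to the length of the gene and to the reads of the library, and differences are given on the log2(RPKM + 1) scale, which understates the change of genes with low values. Reads in genes, recovered from the steps between RPKM values, numbered 9.38 to 58.6 M in HC2 libraries (M, 1000000 reads) and 2.93 to 46.1 M in WT libraries, with 1 HC2 and 3 WT libraries below 10 M. A gene passed the test at an adjusted p below 0.05 (limma, Benjamini-Hochberg adjustment over 20577 genes that reached 1 RPKM in 4 or more libraries). One library stood apart from its group. HC2 4dpi replicate 3 held 38.4 RPKM of the pollen gene LAT52, against 0.0527 to 0.140 in the other HC2 4dpi libraries and 0.0437 to 1.73 in WT 4dpi libraries. It also held 1.58 RPKM of the ovule factor TAGL11 and 1.04 RPKM of the ovule factor INO, against at most 0.0329 and 0 RPKM in the other 3 HC2 4dpi libraries. These genes of organs that appear later in a flower were thus higher there than in the other HC2 4dpi libraries, and the 4dpi results are given with and without it where it changes them.

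SlCLV3 (Solyc11g071380), the gene that pHC2 carries, is read here from the endogenous copy and the transgene together. In early tissue SlCLV3 had 5.08, 5.48, 5.11 and 5.68 RPKM in HC2 libraries, against 6.97, 10.5, 7.83 and 4.66 RPKM in WT libraries. The HC2 values lay close to each other and inside the wide WT range, and fas averaged 4.98 ± 1.09 RPKM (SD, n = 4). At 4dpi SlCLV3 had 1.01, 1.69, 0.409 and 1.19 RPKM in HC2 and 1.04, 2.24, 0.611 and 1.54 RPKM in WT. At 6dpi it had 0.381, 0.869, 1.42 and 0.222 RPKM in HC2 and 0.493, 0.917, 0.421 and 1.00 RPKM in WT. The groups overlapped at every stage, and the gene was most abundant in the meristem-bearing early tissue of both genotypes. The log2 difference was -0.38 (95% CI -0.84 to 0.09, adjusted p = 0.80) early, -0.17 at 4dpi and -0.02 at 6dpi, and -0.19 over stages (95% CI -0.46 to 0.08, adjusted p = 0.42). Over stages HC2 minus fas was 0.13 (95% CI -0.14 to 0.40, adjusted p = 0.75), and fas minus WT was -0.32 (adjusted p = 0.59). A change of SlCLV3 mRNA in HC2 relative to WT, or relative to fas over stages, was thus not detectable in these libraries. A difference between fas and WT over stages was not detectable either, so the values cannot show whether the transgene restored the mRNA level. The fas libraries were compared only as the mean over stages, which includes the later stages of low SlCLV3, and early tissue alone was not tested. The paper reports lower SlCLV3 in floral and inflorescence meristems of fas lines in a separate set of libraries. A library of HC2 held 2 to 149 reads of SlCLV3 (median 20), and one of WT 5 to 174 (median 21.5). These are bulk tissues, in which fewer cells of a type and less RNA per cell cannot be told apart.

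SlWUS (Solyc02g083950), the tomato WUSCHEL, had overlapping levels in HC2 and WT. In early tissue SlWUS had 35.5, 38.9, 31.7 and 25.8 RPKM in HC2 libraries and 41.6, 44.7, 18.7 and 23.3 RPKM in WT libraries. At 4dpi it averaged 5.09 ± 1.41 RPKM in HC2 and 4.78 ± 1.94 RPKM in WT, and at 6dpi 2.51 ± 1.11 RPKM in HC2 and 2.92 ± 0.367 RPKM in WT (SD, n = 4 each). Over stages the log2 difference was 0.01 (95% CI -0.29 to 0.30, adjusted p = 0.99). In RNAi-SlCLV3, by contrast, SlWUS was higher than in HC2 by 0.99 on the log2 scale over stages (adjusted p = 1.2e-06), with means of 14.4 RPKM at 4dpi and 9.39 RPKM at 6dpi. The sign of the small SlWUS difference between HC2 and WT turned under several other settings, always without a call.

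SlCLE9 (Solyc06g074060), which encodes a CLE peptide related to SlCLV3, separated HC2 from fas. In early tissue SlCLE9 had 2.15, 4.39, 3.38 and 2.88 RPKM in HC2 libraries and 2.45, 2.33, 2.68 and 2.04 RPKM in WT libraries, while fas averaged 10.6 ± 1.40 RPKM (SD, n = 4). HC2 overlapped with WT and lay far under fas. Over stages SlCLE9 was lower in HC2 than in fas (95% CI of the log2 difference -1.27 to -0.74, adjusted p = 5.1e-08), whereas HC2 minus WT was 0.17 (95% CI -0.10 to 0.43, adjusted p = 0.47). The fas minus WT difference of the gene was 1.17 (adjusted p = 2e-08), and RNAi-SlCLV3 minus HC2 was 2.11 (adjusted p = 4.3e-20). The comparisons share the HC2, fas or WT libraries, so these values are set side by side and are not independent. Over all genes HC2 minus fas had 784 calls (3.81%), 509 higher (2.47%) and 275 lower (1.34%), and fas minus WT had 17 (0.0826%), 13 higher (0.0632%) and 4 lower (0.0194%). RNAi-SlCLV3 minus HC2 had 1497 calls (7.28%), 774 higher (3.76%) and 723 lower (3.51%) in RNAi-SlCLV3.

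No member of the pathway differed detectably between HC2 and WT. The receptor kinase SlCLV1 differed by -0.03 on the log2 scale over stages (adjusted p = 0.84) and the receptor-like protein SlCLV2 by 0.02 (adjusted p = 0.89). The related receptor kinase SlBAM1 differed by -0.04 (adjusted p = 0.84) and FIN, the arabinosyltransferase that modifies CLE peptides, by 0.13 (adjusted p = 0.31). Of the 7 pathway genes tested, 0 passed the limma test over stages and 0 had an unadjusted p below 0.05, beside 6.65% of all genes called. Their median difference was 0.01, against 0.04 for all tested genes.

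**Figure D1:**
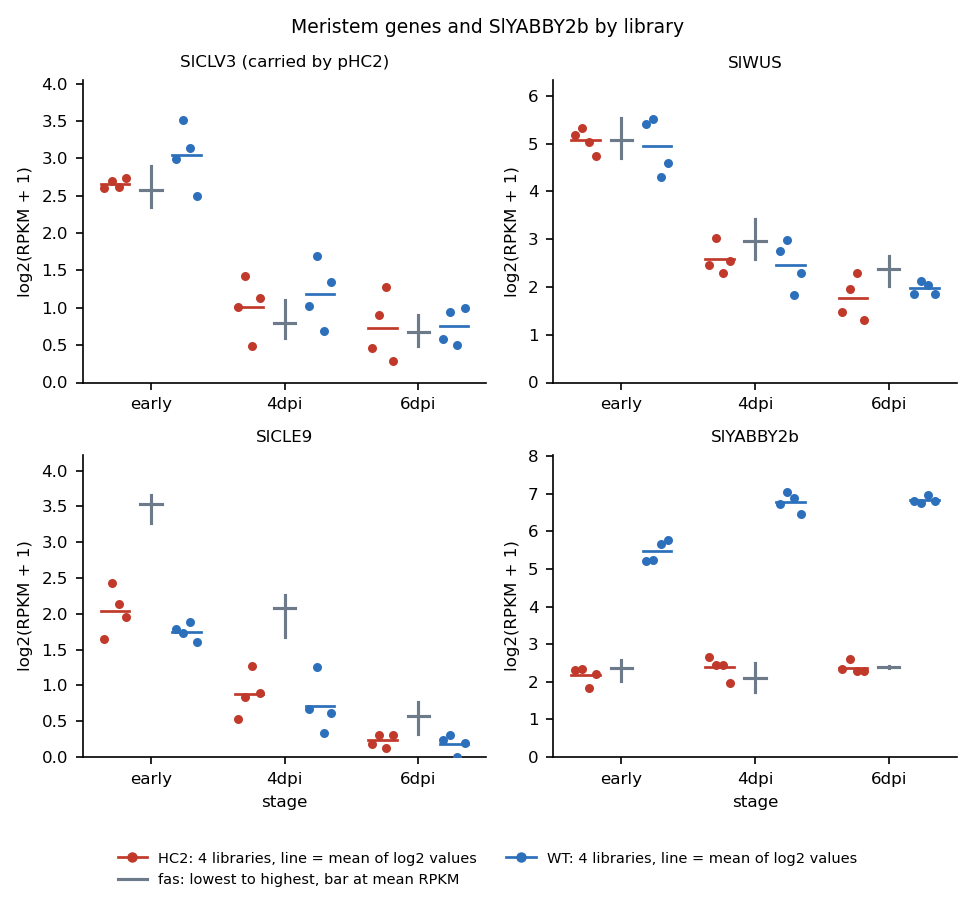
SlCLV3, SlWUS, SlCLE9 and SlYABBY2b in HC2 and WT, as log2(RPKM + 1) by stage. Points are single libraries and lines the mean of the log2 values, with fas as a bar from its lowest to its highest library and its mean. HC2 and WT points overlap for SlCLV3, SlWUS and SlCLE9 at every stage, while SlYABBY2b lies at 2.59 to 5.29 RPKM in HC2 and at 36.1 to 131 RPKM in WT.

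The carpel factors CRCa (Solyc01g010240) and CRCb (Solyc05g012050), YABBY genes related to CRABS CLAW, were, like SlCLE9, lower in HC2 than in fas, with HC2 close to WT. They are named after their values were seen. At 6dpi CRCb had 5.93, 11.9, 9.68 and 9.82 RPKM in HC2 and 6.62, 7.91, 10.8 and 8.00 RPKM in WT, while fas averaged 18 ± 2.35 RPKM (SD, n = 4). The HC2 and WT values of CRCb overlapped and fas was higher. RNAi-SlCLV3 averaged 10.8 RPKM of CRCb at 6dpi (5.64 to 16.1), below the fas mean. For CRCa at 6dpi RNAi-SlCLV3 averaged 119 RPKM and fas 138 RPKM. Over stages CRCb was lower in HC2 than in fas (difference -0.42, adjusted p = 0.0082), and HC2 minus WT was 0.06 (adjusted p = 0.77). CRCa was lower in HC2 than in fas as well (difference -0.67, adjusted p = 0.010), with HC2 minus WT at -0.04 (adjusted p = 0.91). The fas minus WT difference was 0.48 for CRCb (adjusted p = 0.032) and 0.63 for CRCa, which did not pass (adjusted p = 0.20).

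In the fas segment a larger share of the tested genes differed between HC2 and WT than over all genes. SlYABBY2b (Solyc11g071810), a YABBY factor of lateral organs that sits at an inversion breakpoint, fell in HC2 at all stages. In early tissue it had 3.94, 4.05, 2.59 and 3.63 RPKM in HC2, against 36.1, 36.9, 49.3 and 53.9 RPKM in WT. At 4dpi it had 5.29, 4.50, 4.48 and 2.94 RPKM in HC2, against 105, 131, 116 and 86.8 RPKM in WT, and at 6dpi 4.07, 5.09, 3.84 and 3.90 RPKM in HC2, against 112, 106, 124 and 112 RPKM in WT. The groups did not come near each other. SlYABBY2b fell by 3.30 early, 4.39 at 4dpi, 4.46 at 6dpi and 4.05 over stages on the log2 scale (SE 0.10, adjusted p = 8.8e-42). Between HC2 and fas the difference was 0.04 (95% CI -0.15 to 0.23, adjusted p = 0.91), and fas averaged 4.12, 3.27 and 4.29 RPKM at the 3 stages. SlYABBY2b was thus low in both HC2 and fas.

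Identifiers from Solyc11g071370 to Solyc11g071830 were taken as the fas segment, 47 in all, of which 35 had enough reads to be tested. Over stages 17 of these 35 passed the test (12 higher and 5 lower in HC2), or 48.6%, beside 6.65% of all genes. Solyc11g071480, related to Arabidopsis HCT, an acyltransferase of lignin synthesis, fell by 1.17 over stages (adjusted p = 1.6e-09). It had 270, 218, 281 and 268 RPKM in HC2 early tissue, against 575, 407, 599 and 685 RPKM in WT. The gene was lower in HC2 than in fas by 0.52 (adjusted p = 0.013) and lower in fas than in WT by 0.65 (adjusted p = 0.021), so fas stood between HC2 and WT. Solyc11g071790, related to the succinate dehydrogenase subunit SDH6, and Solyc11g071490, a ribosomal protein of the L30 family, fell by 0.48 (adjusted p = 6.1e-07) and 0.37 (adjusted p = 0.00014). Solyc11g071530, a ribosomal protein of the L7/L12 family, rose by 0.55 (adjusted p = 3.9e-08). For Solyc11g071490 and Solyc11g071530 the HC2 minus fas differences of -0.04 and 0.12 did not pass. The remaining called genes of the segment rose or fell by at most 0.56, apart from the 2 that follow. In HC2 minus fas 7 of the 35 genes were higher and 1 was lower (22.9%, beside 3.81% of all genes). The higher ones included Solyc11g071620 (0.77), Solyc11g071460 (0.51), Solyc11g071430 (0.46) and Solyc11g071410 (0.43), which also rose against WT. For these genes fas minus WT was -0.28, 0.05, -0.07 and 0.06 in that order, and none passed.

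The largest rises in the segment belonged to 2 genes that were also higher in HC2 than in fas. Solyc11g071370, a pentatricopeptide repeat protein whose identifier is the one next to SlCLV3, had 57.9, 51.9, 44.8 and 57.4 RPKM in HC2 early tissue, against 31.4, 21.5, 43.2 and 27.6 RPKM in WT. At 4dpi it had 60.3, 44.8, 56.8 and 57.6 RPKM in HC2, against 30.03, 24.9, 33.0 and 30.2 RPKM in WT. The 2 groups did not overlap at either stage. Over stages the gene rose by 0.83 against WT (SE 0.10, adjusted p = 4.2e-09) and by 1.21 against fas (adjusted p = 5.1e-15), while fas minus WT was -0.38 (adjusted p = 0.15). Whether pHC2 also carries this neighbour was not tested. Solyc11g071600, which has no annotation in the tables used, had 19.4, 13.9, 18.7 and 19.5 RPKM in HC2 early tissue, against 0.0723, 0.704, 0 and 1.28 RPKM in WT. It rose by 3.71 early, 1.68 at 4dpi and 1.16 at 6dpi, and by 2.18 over stages against WT and 1.85 against fas. This gene was thus highest in HC2 early tissue, and its difference from WT shrank with stage (6dpi less early -2.56, adjusted p = 2.2e-07). Of the single-stage calls of Solyc11g071370, that of early tissue was lost without WT replicate 2 (adjusted p = 0.052) and that of 6dpi without HC2 replicate 1 (adjusted p = 0.074).

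**Figure D2:**
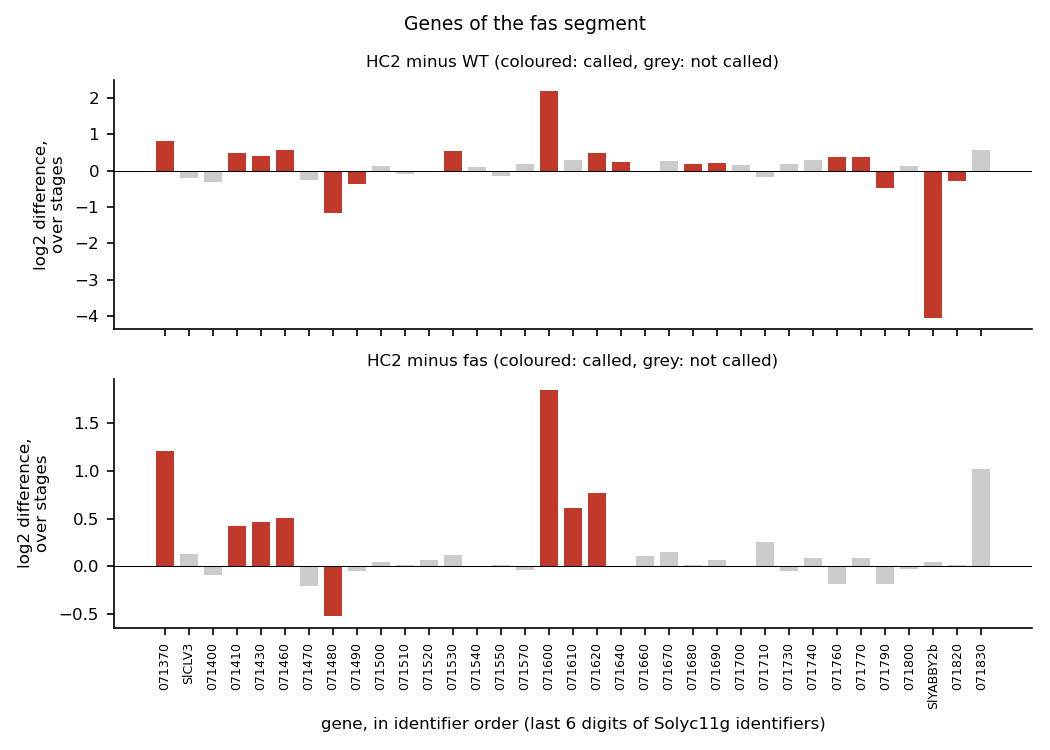
Log2 differences over stages for the 35 tested genes of the fas segment in identifier order, with HC2 minus WT above and HC2 minus fas below. Coloured bars passed the test. HC2 minus WT has 17 coloured bars, with SlYABBY2b at -4.05, while HC2 minus fas has 8 and leaves SlYABBY2b at 0.04.

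Across the genome the difference between HC2 and WT was broad and mostly small. Over stages 1368 of 20577 genes passed (6.65%), 945 higher in HC2 (4.59%) and 423 lower (2.06%), with a median absolute difference of 0.32 on the log2 scale. At single stages 286 genes passed early (1.39%), 221 higher (1.07%) and 65 lower (0.316%). At 4dpi 285 passed (1.39%), 185 higher (0.899%) and 100 lower (0.486%), and at 6dpi 194 (0.943%), 144 higher (0.7%) and 50 lower (0.243%). Without any test, the 4 HC2 libraries lay above the 4 WT libraries for 600 genes early (2.92%), 544 at 4dpi (2.64%) and 750 at 6dpi (3.64%), and below them for 222 (1.08%), 264 (1.28%) and 343 genes (1.67%). At every stage HC2 lay above WT for 101 genes (0.491%) and below it for 31 (0.151%). Of all genes called at any stage, 106 were called at all 3, 82 of them higher and 24 lower, and no gene was called in opposite directions at 2 stages. Differences of at least 1 on the log2 scale made up 83 of the calls over stages (69 higher and 14 lower in HC2). The mean over stages takes libraries of different stages as independent. When libraries of a genotype and replicate number were averaged first (4 against 4), 432 genes passed (301 higher and 131 lower), 430 of them among the 1368.

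The excess of higher genes depended on how the libraries were scaled. With RPKM as deposited 69.1% of the calls over stages were higher in HC2, with median-of-ratios scaling 50.8% (676 higher and 654 lower) and with quantile normalization 45.0% (597 higher and 729 lower). Under quantile normalization the higher share was 63.6% early, 50.9% at 4dpi and 61.1% at 6dpi, against 77.3%, 64.9% and 74.2% with RPKM as deposited. The count at 4dpi also depended on single libraries. It was 159 without HC2 replicate 3, 169 without WT replicate 2, 733 without HC2 replicate 2 and 461 without WT replicate 4. Over stages 1120 genes passed without the single library HC2 4dpi replicate 3, 1021 of them among the 1368.

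**Figure D3:**
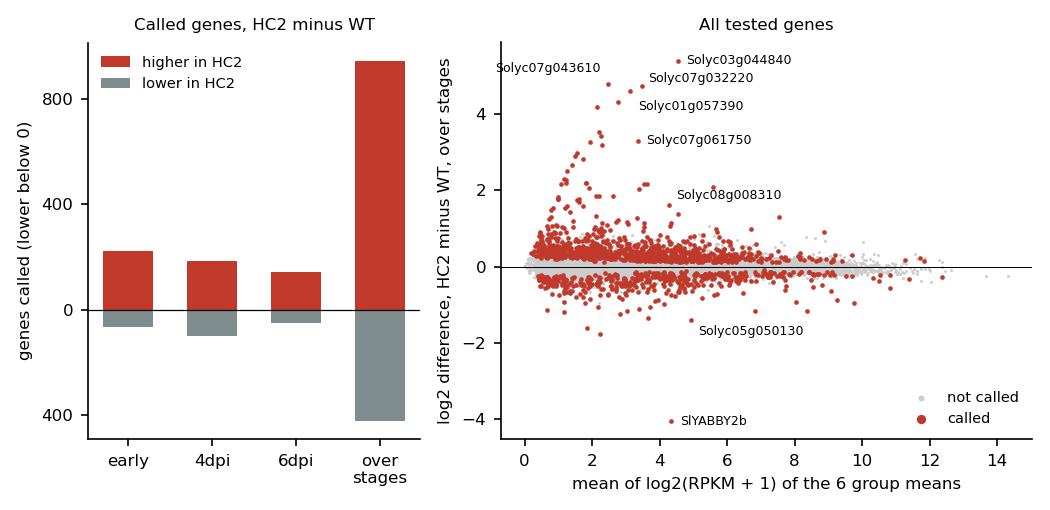
Left, genes called higher and lower in HC2 than in WT at each stage and over stages. Right, mean log2 level against the log2 difference over stages for the 20577 tested genes, with called genes in colour and some of them named. The 1368 calls over stages reach 5.40 (Solyc03g044840) above and -4.05 (SlYABBY2b) below.

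The largest rises belonged to genes that were almost silent in WT. Solyc03g044840, which has no annotation in the tables used, had 192, 124, 175 and 183 RPKM in HC2 early tissue, against 0.583, 8.81, 0.381 and 0.937 RPKM in WT. It stayed high in later buds, with 80.0 to 153 RPKM at 4dpi and 111 to 166 RPKM at 6dpi in HC2, against 0.953 to 2.57 and 3.09 to 7.78 RPKM in WT. The gene was higher in HC2 by 5.40 over stages (SE 0.18, adjusted p = 1.7e-33). In fas it averaged 1.01, 1.37 and 3.70 RPKM at the 3 stages, near WT, but in RNAi-SlCLV3 it averaged 207, 164 and 170 RPKM, and RNAi-SlCLV3 minus HC2 was 0.37 (adjusted p = 0.28). Solyc01g057390, also without annotation, gave the same order, with 40.01 to 55.2 RPKM in HC2 early tissue, 63.6 RPKM on average in RNAi-SlCLV3 and 0 to 3.08 RPKM in WT.

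Other genes were high in HC2 and near 0 in RNAi-SlCLV3, fas and WT. Solyc07g043610 had 26.6, 28.4, 31.7 and 35.0 RPKM in HC2 early tissue, against 0, 0.240, 0 and 0 RPKM in WT. At 4dpi it had 21.6 to 38.4 RPKM in HC2 against 0 to 0.0446 RPKM in WT, and at 6dpi 21.01 to 26.2 RPKM in HC2 against 0 to 0.219 RPKM in WT. The gene was thus close to silent in WT and about equally high at all stages of HC2. In RNAi-SlCLV3 it averaged 0.0864, 0.138 and 0.384 RPKM at the 3 stages, and RNAi-SlCLV3 minus HC2 was -4.60. Solyc07g032220 had 48.3, 65.5, 59.7 and 62.2 RPKM in HC2 early tissue, against 0.363, 0.589, 3.48 and 1.07 RPKM in WT, and 0.517 RPKM on average in RNAi-SlCLV3 and 0.851 RPKM in fas. It was higher in HC2 by 4.73 over stages, and RNAi-SlCLV3 minus HC2 was -4.87.

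Among annotated genes the top of the list was held by Solyc07g061750, an ankyrin repeat protein. It had 31.6, 20.04, 36.0 and 27.1 RPKM in HC2 early tissue, against 0.167, 1.59, 0 and 0.493 RPKM in WT. By 6dpi it had 52.6, 25.6, 26.0 and 41.5 RPKM in HC2, against 5.46, 5.81, 5.01 and 6.14 RPKM in WT. The HC2 level stayed while the WT level was higher in older buds, and the difference shrank with stage, at 4.32 early, 3.14 at 4dpi and 2.44 at 6dpi (6dpi less early -1.88, adjusted p = 2.1e-05). In RNAi-SlCLV3 the gene averaged 44.3, 35.9 and 38.1 RPKM, and fas minus WT was 0.58 (adjusted p = 0.0073). Solyc03g121850, a hypothetical protein, was higher in HC2 by 1.86 over stages, with 12.03 ± 1.56 RPKM in HC2 and 2.08 ± 0.694 RPKM in WT early tissue (SD, n = 4 each).

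Single genes of lipid metabolism, small-RNA silencing and defence came next. Solyc08g008310, related to the long-chain acyl-CoA synthetase LACS4, had 32.8, 35.7, 40.9 and 35.8 RPKM in HC2 early tissue, against 8.94, 14.8, 16.7 and 14.8 RPKM in WT. It rose by 1.61 over stages (SE 0.09, adjusted p = 5.9e-23). Its groups did not overlap at any stage, which the rule for naming the largest changes over stages required. Solyc06g074730, related to AGO5, an Argonaute protein that binds small RNAs, had 300, 205, 303 and 260 RPKM in HC2 at 4dpi, against 103, 70.8, 86.5 and 124 RPKM in WT. AGO5 rose by 0.87 early, 1.48 at 4dpi and 1.55 at 6dpi, and RNAi-SlCLV3 minus HC2 was -0.88 (adjusted p = 3.2e-11), so this silencing gene was higher in HC2 than in the hairpin line. Solyc09g089530, a proteinase inhibitor of the pathogenesis-related PR-6 family, rose by 1.39 over stages (adjusted p = 6.4e-08), with 34.2 ± 5.50 RPKM in HC2 and 8.04 ± 2.94 RPKM in WT early tissue (SD, n = 4 each). Its difference at 6dpi, 0.81, did not pass. Solyc05g054340, an NB-ARC resistance protein that belongs to the intracellular immune receptors, rose by 0.94, with 8.91 ± 1.04 RPKM in HC2 and 2.89 ± 0.762 RPKM in WT early tissue.

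Several further rises concerned enzymes and regulators. Solyc09g089690, a 2-oxoglutarate-dependent dioxygenase of high level, had 559 ± 56.2 RPKM in HC2 and 211 ± 25.9 RPKM in WT early tissue (SD, n = 4 each) and rose by 0.91 over stages, and its relative Solyc04g009850 rose by 1.23. Solyc01g007070, related to the BEL1-like homeodomain factor BLH1, rose by 0.94, with 2.99 ± 0.381 RPKM in HC2 and 0.980 ± 0.0481 RPKM in WT early tissue. The B3-domain gene Solyc01g108120 rose by 0.96, and here RNAi-SlCLV3 minus HC2 was -0.79 (adjusted p = 3.0e-11), with RNAi-SlCLV3 at 2.63 RPKM in early tissue. Solyc07g043130, related to the phototropism gene RPT2, rose by 1.83 in early tissue (8.48 ± 1.41 RPKM in HC2 and 1.72 ± 0.688 RPKM in WT) and its later differences of 0.66 and 0.62 did not pass. Solyc12g040800, related to the abscisic acid signalling gene CAR5, passed in older buds, at 1.35 for 4dpi and 1.06 for 6dpi. The glutathione S-transferase Solyc09g011580, related to GSTU8, rose by 1.20 at 6dpi.

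**Figure D4:**
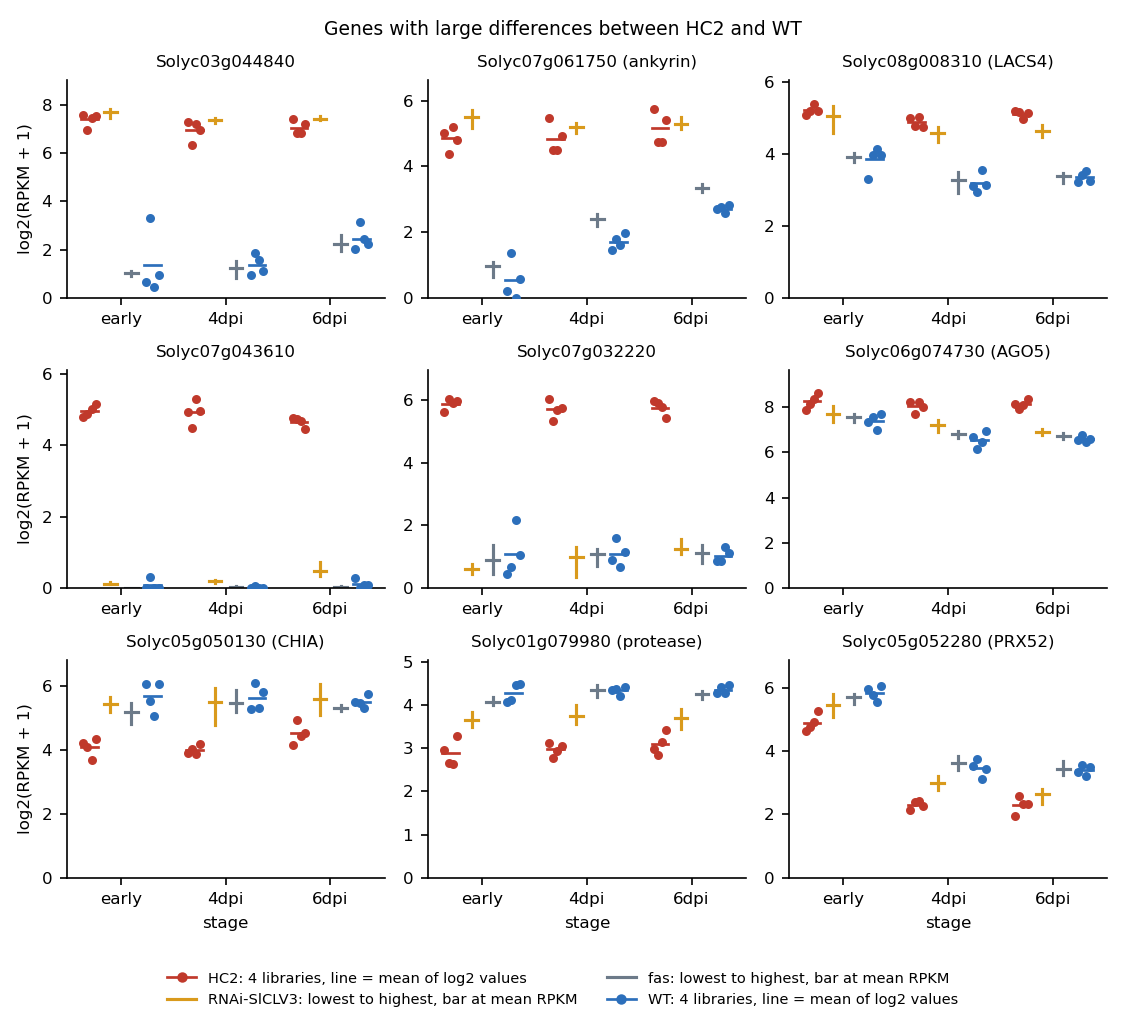
Genes with large differences between HC2 and WT, as log2(RPKM + 1) by stage. Points are single HC2 and WT libraries with a line at the mean of their log2 values, and bars run from the lowest to the highest RNAi-SlCLV3 and fas library with a mark at the mean RPKM. Solyc03g044840 and Solyc07g061750 are high in HC2 and RNAi-SlCLV3, Solyc07g043610 and Solyc07g032220 in HC2 but in none of the other 3 genotypes drawn, and the chitinase gene Solyc05g050130 is at 11.9 to 30.1 RPKM in HC2 and 32.9 to 67.2 RPKM in WT.

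Outside the fas segment, the named genes that fell in HC2 changed less than the largest rises. Solyc05g050130, related to the acidic chitinase CHIA, had 17.9, 16.0, 11.9 and 19.5 RPKM in HC2 early tissue, against 66.9, 45.6, 32.9 and 66.3 RPKM in WT. At 6dpi it had 17.0, 30.1, 20.98 and 22.0 RPKM in HC2, against 44.3, 43.8, 38.7 and 53.5 RPKM in WT. The chitinase gene fell by 1.40 over stages (SE 0.13, adjusted p = 3.8e-13), and RNAi-SlCLV3 minus HC2 was 1.26. The lack of overlap at any stage was again a condition for naming it. Solyc01g079980, an aspartyl protease of the xylanase inhibitor family, had 6.79, 5.30, 5.20 and 8.68 RPKM in HC2 early tissue, against 15.8, 16.4, 21.1 and 21.6 RPKM in WT, and fell by 1.35 over stages (adjusted p = 8.3e-25). The peroxidase gene Solyc05g052280, related to PRX52, had 23.8, 26.3, 29.4 and 37.5 RPKM in HC2 early tissue, against 61.6, 53.3, 46.2 and 65.5 RPKM in WT, and fell by 1.06. The chitinase, protease and peroxidase genes encode proteins of cell wall or defence families, which is not a tested theme. The rule for the largest changes also named Solyc12g098090 (-1.76 over stages) and Solyc01g020500 (-1.62), both without annotation. The sulfate transporter gene Solyc06g084140 (-1.18) fell by more than the peroxidase gene as well.

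Other falls concerned single genes of transport, protein folding and metabolism. The sulfate transporter gene Solyc06g084140, related to SULTR3;1, had 0.422, 0.171, 0.189 and 0.280 RPKM in HC2 at 4dpi, against 1.75, 2.57, 2.38 and 3.60 RPKM in WT. It fell by 1.18 over stages (adjusted p = 1.9e-10), and RNAi-SlCLV3 was on the other side, with RNAi-SlCLV3 minus HC2 at 2.01. Solyc04g048900, related to the calreticulin CRT3, a chaperone of the endoplasmic reticulum, had 2.44, 2.73, 2.87 and 3.34 RPKM in HC2 early tissue, against 7.46, 5.47, 8.42 and 14.9 RPKM in WT. It fell by 1.06 over stages, while RNAi-SlCLV3 minus HC2 was 2.11 (adjusted p = 1.2e-19). The cell wall invertase gene Solyc10g083290, related to CWINV2, fell by 0.98, with 22.5 ± 8.28 RPKM in HC2 and 49.2 ± 18.8 RPKM in WT early tissue (SD, n = 4 each). Solyc08g066880, a phosphorylase family gene of very high level, fell by 0.95, with 434 ± 94.4 RPKM in HC2 and 951 ± 376 RPKM in WT early tissue. The inositol phosphate kinase gene Solyc03g097150, related to ITPK1, fell by 0.79, and the HXXXD acyltransferase gene Solyc12g096770 by 0.69.

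Some single-stage calls among these genes were lost with 1 library left out. Of the calls of named genes, 28 of 45 in early tissue, 33 of 41 at 4dpi and 24 of 37 at 6dpi passed with each HC2 and WT replicate left out in turn. Without HC2 replicate 3 the 4dpi calls of Solyc10g083290 (difference -0.997 in place of -1.14, adjusted p = 0.052), Solyc12g096770 (-0.66 in both, adjusted p = 0.085) and PRR7 (0.23 in place of 0.41, adjusted p = 0.49) were among those lost. Without WT replicate 3, the library of 2.93 M reads, the early calls of Solyc08g066880 (-0.85 in place of -1.07, adjusted p = 0.065) and Solyc06g084140 (-0.86 in place of -0.98, adjusted p = 0.059) were among those lost. Apart from PRR7 these differences kept most of their size.

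In early tissue a pair of genes of floral organ identity were higher in HC2. These MADS-box factors give petals, stamens and carpels their identity and are switched on as organs form. The B-class factor TAP3 (Solyc04g081000), needed for petals and stamens, had 4.75, 15.0, 2.89 and 5.201 RPKM in HC2 early tissue, against 0.559, 2.28, 2.01 and 2.23 RPKM in WT. TM5 (Solyc05g015750), a SEPALLATA-type partner of these factors, had 59.8, 48.7, 48.1 and 43.6 RPKM in HC2 early tissue, against 18.9, 23.7, 34.7 and 32.8 RPKM in WT. All 4 HC2 libraries lay above all 4 WT libraries for both genes. TAP3 rose by 1.37 (SE 0.36, adjusted p = 0.030) and TM5 by 0.87 (SE 0.22, adjusted p = 0.019). At 4dpi and 6dpi the differences were -0.07 and -0.06 for TAP3 and 0.12 and -0.01 for TM5. The change of either gene between stages did not pass the test (adjusted p of at least 0.99).

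Of the 12 floral organ MADS-box genes tested, out of 14 listed, 2 passed in early tissue (16.7%, beside 1.39% of all genes), both higher, with a median of 0.34 for the list against 0.03 for all genes. The list was chosen with earlier results of these data known, and it did not move as a whole. Differences were above 0 for 8 of the 12 and ran from -0.39 to 1.37. The summed level of the 14 listed genes had a median of 1023 RPKM in HC2 early libraries and 1080 RPKM in WT. The AGAMOUS homolog TAG1 had 2.48, 8.77, 1.84 and 3.35 RPKM in HC2 early tissue, against 0.723, 1.64, 0.693 and 1.99 RPKM in WT, and did not pass (difference 1.05, adjusted p = 0.092). At 4dpi and at 6dpi 0 of the 12 passed the limma test and 0 had an unadjusted p below 0.05. The calls of both genes were lost with single libraries left out. TAP3 was lost without HC2 replicate 2 (difference 0.96, adjusted p = 0.37), HC2 replicate 4 (1.42, adjusted p = 0.054), WT replicate 1 (1.12, adjusted p = 0.19) or WT replicate 3 (1.43, adjusted p = 0.051). TM5 was lost without HC2 replicate 1 (0.78, adjusted p = 0.098), WT replicate 1 (0.71, adjusted p = 0.16) or WT replicate 2 (0.81, adjusted p = 0.068). Both genes stayed higher in HC2 in each of these.

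Genes that change during bud development were also looked at in early tissue. In lc, fas and lc/fas libraries, which are neither HC2 nor WT, 695 of the tested genes (3.38%) were higher by at least 1 on the log2 scale in 4dpi buds than in early tissue. Among the 221 genes higher in HC2 early tissue they numbered 24 (10.9%), and over all 695 the median difference between HC2 and WT early tissue was 0.10, against 0.03 for all genes. Another 318 genes (1.55%) were lower by at least 1 in 4dpi buds than in early tissue. They numbered 7 among the 221 (3.17%), and their median difference was 0.03. Among genes higher in HC2 at 4dpi the share of the 695 was 3.78%, and at 6dpi 2.08%. Among the 65 genes lower in HC2 early tissue, 2 were of the 695 (3.08%) and 3 of the 318 (4.62%). Of the 100 genes lower at 4dpi, 7 were of the 318 (7%). Over stages the share of the 695 was above that of all genes in both directions, at 5.08% of the higher and 4.73% of the lower genes. The part that the mixture of meristems and buds in the dissected early tissue had in these calls was not tested.

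Of the 7 circadian clock genes listed, 3 were higher in HC2 when averaged over the stages. PRR5 (Solyc03g081240), PRR7 (Solyc10g086000) and TOC1 (Solyc03g115770) are pseudo-response regulators, daytime and evening repressors at the core of the plant clock. PRR5 had 9.01, 11.5, 9.996 and 8.17 RPKM in HC2 early tissue, against 5.47, 5.56, 10.1 and 3.89 RPKM in WT. At 6dpi PRR5 had 9.89, 12.2, 12.5 and 11.9 RPKM in HC2, against 6.79, 8.31, 9.67 and 5.65 RPKM in WT. WT replicate 3 reached the HC2 range early and the other WT libraries did not. PRR7 had 75.5, 70.5, 112 and 61.2 RPKM in HC2 at 4dpi, against 53.0, 54.0, 63.8 and 63.5 RPKM in WT, and TOC1 had 8.10, 9.63, 9.15 and 11.3 RPKM in HC2 at 4dpi, against 6.58, 4.61, 7.17 and 8.17 RPKM in WT. HC2 values of PRR7 and TOC1 were mostly above WT values, with an overlap.

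Over stages PRR5 rose by 0.57 (SE 0.13, adjusted p = 0.0023), PRR7 by 0.29 (SE 0.06, adjusted p = 0.00066) and TOC1 by 0.36 (SE 0.09, adjusted p = 0.0061). Of the 7 clock genes listed 3 passed over stages, all higher (42.9%, beside 6.65% of all genes), and the median of the list was 0.29. The list was chosen with earlier results of these data known, so its share is no test of clock genes as a set. FKF1, COR27, COR28 and RVE8 did not pass. Against fas PRR5 was higher in HC2 by 0.71 (adjusted p = 0.00011) and PRR7 by 0.23 (adjusted p = 0.016). With replicate means PRR5 (adjusted p = 0.17) and TOC1 (adjusted p = 0.19) no longer passed, and the single-stage call of PRR7 at 4dpi, 0.41, was 0.23 without HC2 replicate 3 (adjusted p = 0.49). The methods give a fixed morning window of collection for WT and the RNAi lines, and the hour of each library is not given in the sources used here, so the part of sampling time was not tested.

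**Figure D5:**
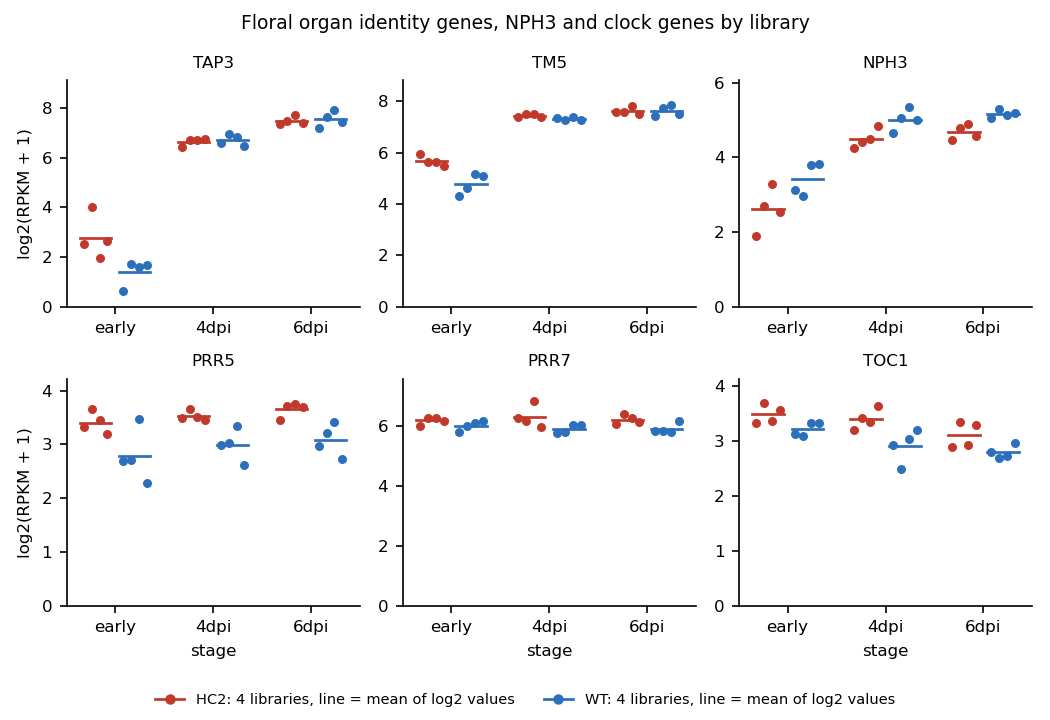
TAP3, TM5, NPH3, PRR5, PRR7 and TOC1 in single HC2 and WT libraries by stage, as log2(RPKM + 1), with lines at the mean of the log2 values. TAP3 and TM5 separate HC2 from WT in early tissue and overlap at the later stages, while PRR5, PRR7 and TOC1 lie mostly higher and NPH3 mostly lower in HC2 at all 3 stages.

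Single members of other lists passed as well. The phototropism-related gene NPH3 (Solyc11g040040) had 20.9, 26.5, 28.5 and 22.7 RPKM in HC2 at 6dpi, against 32.4, 38.1, 34.1 and 35.5 RPKM in WT. NPH3 fell by 0.61 over stages (SE 0.13, adjusted p = 0.00099), while HC2 minus fas was -0.32 (adjusted p = 0.21) and fas minus WT was -0.29 (adjusted p = 0.60). Its early call (difference -0.81) was lost without HC2 replicate 1, 2 or 4 or WT replicate 3 or 4 (differences of -0.85 to -0.58, adjusted p of 0.077 to 0.33). ZWI (Solyc12g082730), a kinesin that moves along microtubules, had 29.6, 36.1, 30.5 and 24.6 RPKM in HC2 at 6dpi, against 21.3, 23.9, 22.3 and 20.4 RPKM in WT. ZWI rose by 0.36 over stages (adjusted p = 8.4e-06), the sole call among 18 cell division genes (5.56%, beside 6.65% of all genes), and HC2 minus fas was -0.15 (adjusted p = 0.19). In fas minus WT it was higher by 0.51, again the sole call of the list, so ZWI was higher than WT in both HC2 and fas.

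Further calls were close to the threshold. TKN1 (Solyc04g077210), a KNOX homeodomain factor of the meristem, fell by 0.19 (adjusted p = 0.042), the one call among 10 meristem maintenance genes (10%, beside 6.65% of all genes). RCA (Solyc09g011080), which activates Rubisco, rose by 0.68 (adjusted p = 0.014), the one call among 12 photosynthesis genes (8.33%), with 313 ± 93.2 RPKM in HC2 and 194 ± 67.4 RPKM in WT at 6dpi (SD, n = 4 each). PAL2 (Solyc05g056170), the entry enzyme of the phenylpropanoid pathway, fell by 0.34 (adjusted p = 0.025), the one call among 11 (9.09%). With replicate means the adjusted p was 0.20 for TKN1, 0.28 for RCA and 0.26 for PAL2, so none of the 3 passed.

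Several lists had no call over stages, where 4474 of all 20577 genes (21.7%) had an unadjusted p below 0.05. Among 12 inflorescence and flowering genes, which include the florigen SFT and the antiflorigen SP, 0 passed the limma test and 5 had an unadjusted p below 0.05, and among 12 floral organ MADS-box genes 0 passed and 2 had one. The counts were 0 and 1 for 3 boundary genes, 0 and 0 for 4 fruit size and shape genes, 0 and 1 for 18 sterol and brassinosteroid genes, and 0 and 1 for 7 jasmonate genes. Among 3 heat shock genes 0 passed and 2 had an unadjusted p below 0.05. The chaperone HSP90.1 had 634, 536, 173 and 505 RPKM in HC2 at 4dpi, against 337, 319, 109 and 349 RPKM in WT. The 2 groups overlapped, and the difference over stages, 0.77, did not pass (adjusted p = 0.14).

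The study's tables give tomato genes related to WUS-induced and WUS-repressed genes of Arabidopsis, which the study picked among genes that changed in its 3′ tag libraries of lc, fas, lc/fas and WT, so neither list is independent of the study's own data. Of 41 WUS-induced genes, 4 were higher and 2 lower in HC2 over stages (14.6%, beside 6.65% of all genes), with a list median of 0.03 against 0.04 for all genes. The largest of these was Solyc08g068710, related to the acetyltransferase NATA1, at 0.51 (adjusted p = 0.00037), followed by Solyc06g075520, related to the dehydroascorbate reductase DHAR2, at 0.43 (adjusted p = 0.010). Solyc11g010960, related to CAD9, fell by 0.30 and Solyc03g120500, related to the auxin response repressor IAA27, by 0.18. Of 50 WUS-repressed genes, 3 were higher, PRR5, ZWI and Solyc04g080130, and 2 were lower, NPH3 and Solyc11g066970 (10%), with a list median of 0.00. The calls of both lists ran in both directions. Solyc04g080130 (adjusted p = 0.045) lost its call under 12 of 19 alternative settings and Solyc03g120500 (adjusted p = 0.029) under 8 of 19. With replicate means Solyc08g068710 (adjusted p = 0.054), Solyc06g075520 (0.089), Solyc11g010960 (0.14) and PRR5 (0.17) did not pass either. NPH3, ZWI and Solyc11g066970 passed over stages under all 19.

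The difference between HC2 and WT changed with stage for few genes. For 4dpi less early 7 genes passed (0.034%), 2 with a higher (0.00972%) and 5 with a lower difference (0.0243%). For 6dpi less early 17 passed (0.0826%), 3 higher (0.0146%) and 14 lower (0.068%), and for 6dpi less 4dpi 2 passed (0.00972%), 1 each way (0.00486% each). Solyc09g014550, of the major latex protein family, had 8.27, 4.82, 7.29 and 6.91 RPKM in HC2 early tissue, against 0.546, 0.594, 0.413 and 0.169 RPKM in WT. At 6dpi it had 0.0738, 0, 0 and 0.258 RPKM in HC2 and was listed at 0 in all 4 WT libraries. It was thus a gene of early tissue, and its difference fell by 2.33 between early tissue and 6dpi (adjusted p = 1.1e-16). Solyc12g011200 behaved alike, with 17.9, 11.95, 16.8 and 15.1 RPKM in HC2 early tissue against 0.875, 1.40, 1.57 and 0.967 RPKM in WT, and 1.69, 2.16, 2.64 and 2.34 RPKM in HC2 at 6dpi against 0.849, 0.656, 1.80 and 0.664 RPKM in WT.

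Other genes ran the opposite way. Solyc09g089740 had 0, 0, 0 and 0.318 RPKM in HC2 early tissue, 0, 1.21, 1.48 and 2.64 RPKM at 4dpi and 7.94, 9.66, 7.38 and 10.2 RPKM at 6dpi. It was listed at 0 in all 12 WT libraries, so no fold is given. Solyc12g097080 was highest in 4dpi buds, with 3.63, 3.44, 13.2 and 4.01 RPKM in HC2, of which the 13.2 belongs to the library that stood apart, and it was listed at 0 in WT at that stage. Such genes close to 0 in WT made up most of the stage differences, and with a pseudocount of 0.1 in place of 1 the counts were 0, 7 and 0.

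The calls were spread over all chromosomes, with the largest share on chromosome 7. Over stages 154 of 1473 tested genes of chromosome 7 passed (10.5%), 113 of 1298 of chromosome 12 (8.71%) and 108 of 1414 of chromosome 11 (7.64%), and the others had 5.12% to 7.23%. The calls of chromosome 11 include those of the fas segment, 12 higher and 5 lower among its 35 tested genes. Blocks of neighbouring identifiers with at least 5 calls and at least 5 times the overall share were 06g059 (6 of 17 genes), 07g025 (6 of 17) and 07g044 (5 of 13). All 5 calls of block 07g044 were higher in HC2, while blocks 06g059 and 07g025 each had 4 higher and 2 lower. Where the transgene lies in the genome is not given in the sources used here, and its part in these blocks was not tested.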

How the data were processed

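RNA of 72 libraries (6 genotypes, 3 stages, 4 replicates) was sequenced strand-specifically. The deposited table holds RPKM per gene, which the authors made by mapping reads to the tomato genome of the ITAG annotation with TopHat2 and Bowtie2 (versions not given in the sources used here) and counting the sense strand. Reads were recovered from the RPKM steps (96.5% of 1085592 values under 500 reads whole within 0.01), to show depth only. By the methods for WT and the RNAi lines, replicates were repeated collections that may share plants, so p-values measure the spread between collections.

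Values were taken as log2(RPKM + 1), filtered at 1 RPKM in 4 libraries and fitted with limma 3.58.1 (trend, R 4.3.3) over all 72 libraries and 18 group means, two-sided, with Benjamini-Hochberg adjustment over 20577 genes. Tables and figures used Python 3.11.15. The fit was also run on simulated data with independent noise in each library, which cannot show how correlated libraries affect the counts. Named genes were SlCLV3 and SlWUS, pathway genes, called list members, called genes of the fas segment and, per comparison, up to 8 annotated genes per direction with a mean of at least 2 RPKM and non-overlapping groups, plus at most 2 without annotation. Arabidopsis relatives came from the study's tables, which annotate 3745 tested genes. Names of tomato genes that these tables do not give, such as SlCLV1, SlCLV2, SlBAM1, FIN and TKN1, came from general knowledge of tomato and were not checked against an annotation. Genes compared and lists were chosen with earlier results of these data known. The alternatives were another pseudocount, filters, scalings, HC2 and WT libraries alone, a replicate block, library weights, and libraries or replicates left out. No coordinates or sequences are given, as no annotation of the build was used here.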

Additional observations from a re-analysis of the deposited data

Results flagged for a closer look

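Chance sets 1 library apart in about 1 in 20 groups of 4 with normally spread values. A group at 0 in all but 1 library is always set apart, so the count here is not set against that rate. In 13 of 168 groups of 4 libraries looked at, 1 library lay far from the other 3. WT early replicate 2 was such a library for 3 genes that are high in HC2: Solyc03g044840 had 8.81 RPKM there against 0.381 to 0.937 RPKM in the other WT early libraries, Solyc01g057390 had 3.08 RPKM against 0 to 0.187 RPKM, and Solyc07g043610 had 0.240 RPKM against 0. For Solyc07g043610 WT 4dpi replicate 2 had 0.0446 RPKM and the other WT 4dpi libraries 0.

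HC2 4dpi replicate 3 had 13.2 RPKM of Solyc12g097080, against 3.44 to 4.01 RPKM in the other HC2 4dpi libraries, and WT 6dpi replicate 4 had 0.338 RPKM against 0. HC2 early replicate 2 was lowest for Solyc11g071600 (13.9 RPKM, others 18.7 to 19.5), and HC2 early replicate 4 alone held Solyc09g089740 (0.318 RPKM). For TAP3, HC2 4dpi replicate 1 was lowest (85.1 RPKM, others 104 to 105) and so was WT early replicate 1 (0.559 RPKM, others 2.01 to 2.28). PRR7 was highest in WT 6dpi replicate 4 (70.2 RPKM, others 55.0 to 55.9). Solyc09g014550 was highest in WT 4dpi replicate 3 (0.284 RPKM, others at most 0.0394) and Solyc12g011200 in WT 6dpi replicate 3 (1.80 RPKM, others 0.656 to 0.849).

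The difference between HC2 and WT changed between stages, by limma's test of the change itself, for 8 of the genes named. From early tissue to 4dpi it changed by 2.18 for Solyc12g097080 (adjusted p = 1e-06), 0.79 for Solyc12g097010 (0.0075), -2.06 for Solyc09g014550 (2.8e-14), -2.03 for Solyc11g071600 (0.00015) and -1.71 for Solyc12g011200 (1.7e-05). From early tissue to 6dpi it changed by 3.18 for Solyc09g089740 (2.2e-08), 1.18 for Solyc12g097010 (3.8e-07), -2.33 for Solyc09g014550 (1.1e-16), -1.88 for Solyc07g061750 (2.1e-05), -1.16 for SlYABBY2b (0.011), -2.56 for Solyc11g071600 (2.2e-07) and -2.18 for Solyc12g011200 (2e-08). From 4dpi to 6dpi it changed by 2.2 for Solyc09g089740 (0.0011) and -1.98 for Solyc12g097080 (3.4e-05). The sizes for genes listed at 0 in WT depend on the pseudocount. With a pseudocount of 0.1 the changes from early tissue to 4dpi of Solyc12g097080 (adjusted p = 0.22), Solyc12g097010 (0.99), Solyc09g014550 (0.30) and Solyc12g011200 (0.62) no longer passed, nor did both changes from 4dpi to 6dpi. Without HC2 4dpi replicate 3 the change of Solyc12g097010 from early tissue to 4dpi did not pass (adjusted p = 0.072).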

How the results depend on the processing

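Of 80 named calls (a gene in a comparison) recomputed under up to 19 alternatives, 50 passed under all that could be fitted, 30 were lost under at least 1 and 0 reversed. The alternatives with 1 library left out and with replicate means were chosen after seeing the data. Gene counts that moved by over 1.5 times are given in order early, 4dpi, 6dpi and over stages, where 286, 285, 194 and 1368 genes passed. With a mean of at least 5 RPKM they were 124, 147, 63 and 827, which includes the effect of fewer genes tested. With HC2 and WT libraries alone 148, 126 and 745 passed at 4dpi, at 6dpi and over stages. Array weights gave 140 at 4dpi, a filter only on values above 0 gave 304 at 6dpi, and replicate means gave 432 over stages. With 1 replicate left out the count at 4dpi was 159 to 733 and over stages 966 to 1899. For the change between stages (7 genes from early tissue to 4dpi, 17 from early tissue to 6dpi, 2 from 4dpi to 6dpi) a pseudocount of 0.1 gave 0, 7 and 0, the filter on values above 0 gave 12, 34 and 6, a mean of at least 5 RPKM gave 0, 1 and 0, and HC2 and WT libraries alone gave 3, 8 and 1. Array weights gave 1 from 4dpi to 6dpi, and replicates left out gave 11 to 18 from early tissue to 6dpi, the 11 without HC2 replicate 1. Where no value above shows it, the cause was not tested.

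With the replicate number as a block 480, 749, 313 and 2776 genes passed early, at 4dpi, at 6dpi and over stages, and 12 and 27 for the change from early tissue to 4dpi and to 6dpi. Residuals of HC2 and WT libraries with the same number had a mean correlation of 0.24 (0.015 to 0.45), above 0.1 in 9 of 12 pairs, against -0.08 for other numbers, and 10 of 12 HC2 libraries correlated best with their own number. Of genes in lists without a call over stages, the block gave 5 calls of 12 in inflorescence and flowering, 2 of 3 in heat shock (HSP90.1 at an adjusted p of 0.00043) and 1 each in the boundary, floral organ MADS-box, sterol and jasmonate lists. The labels do not say that a number marks a shared week, so the numbers were not taken as pairs.

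Small differences without a call changed sign. SlWUS over stages (0.0066) was -0.0115 with a pseudocount of 0.1, -0.026 with median-of-ratios scaling, -0.0525 with quantile normalization, -0.0575 with array weights and -0.183 without libraries below 10 M reads, and -0.129 to 0.144 with replicates left out. In early tissue SlWUS was -0.0928 with array weights and -0.394 without libraries below 10 M reads, and -0.106 to 0.299 with replicates left out. At 4dpi it was -0.0954 without libraries below 10 M reads, and -0.0954 to 0.289 with replicates left out. SlCLV3 was -0.339 to 0.000835 at 4dpi and -0.204 to 0.124 at 6dpi with replicates left out, and 0.124 at 6dpi without libraries below 10 M reads. Over stages SlCLV2 was -0.0176 with median-of-ratios scaling, -0.034 with quantile normalization and -0.0386 to 0.0534 with replicates left out, SlCLV1 -0.0761 to 0.036 with replicates left out, and SlBAM1 0.0381 without libraries below 10 M reads and -0.111 to 0.0799 with replicates left out. The filter at a mean of 5 RPKM leaves out SlCLV3. At 4dpi and 6dpi depth limited what could be seen of SlCLV3, with 2 reads in its thinnest HC2 library.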
